A study of Populus ussuriensis with 12 samples.

Results

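The genotype by nitrogen interaction asks, gene by gene, whether overexpression of PuHox52 changed root transcript levels by a different amount at low nitrogen (N) than at normal N. It is the overexpression effect at low N minus the overexpression effect at normal N, on log2(FPKM + 1), where FPKM counts the fragments of a gene relative to gene length and to the total mapped in that library. It used all 12 RNA-seq libraries and the 24570 of 34699 gene IDs that reached 1 FPKM in at least 3 libraries. A positive value means that the effect of overexpression was more positive at low N, and a negative value that it was more negative there.

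The 4 groups were roots of Populus ussuriensis PuHox52-OE plants at low N, wild-type plants at low N, PuHox52-OE plants at normal N and wild-type plants at normal N, with 3 libraries each. All plants were clones propagated in vitro on woody plant medium, grown for 6 days and then kept for 3 weeks at their N supply. The sources used here do not give the promoter of the transgene, the number of transgenic lines or the number of plants behind a library. The libraries of a group are biological replicates by the design text.

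Roots take up nitrate and ammonium through families of membrane transporters and assimilate them into amino acids, and plants short of N reprogram many root genes and alter root growth. PuHox52 is a homeodomain-leucine zipper transcription factor, a plant class of DNA-binding protein that acts as a dimer, and it is known for promoting adventitious root formation in this species. The deposited table gives Potri IDs without gene names or products. Genes are therefore given by ID, no role is assigned to any of them, and the root label could not be checked against marker genes.

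The median within-group SD of a gene on the log2 scale was 0.129 in overexpression and 0.108 in wild-type roots at low N, and 0.0768 in overexpression and 0.0974 in wild-type roots at normal N. Depth relative to wild type, normal N, replicate 1, as read from the step size of low FPKM values, was 0.447 to 0.501 in the low-N libraries and 1 to 1.22 in the normal-N libraries. At each N supply it was similar in both genotypes. A factor that multiplies a gene alike in both genotypes at one N supply cancels in the interaction, apart from the added 1. Absolute depth is unknown, so counting intervals are not given.

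The ID with the largest overexpression effect at normal N was Potri.014G103000. It was picked for that effect, so its separation of the genotypes at normal N is a description and no check of the labels. At low N, which the pick did not use, it also separated the genotype labels in every library. It had 1557, 2309.8 and 1091 FPKM in overexpression roots at low N, against 55.4, 51.0 and 28.2 FPKM in wild-type roots at low N. At normal N it had 2392, 2274 and 2251 FPKM in overexpression roots, against 6.71, 8.14 and 7.31 FPKM in wild-type roots. The overexpression libraries were far above the wild-type libraries at both N supplies, with ratios of means of 36.8 at low N and 312.0 at normal N. The interaction of this ID, -2.94 ± 0.395 (SE), had an adjusted p of 0.000244 (limma with Benjamini-Hochberg adjustment, as throughout). The smaller effect at low N stood beside a higher wild-type level there, with a low-N response of 2.40 in wild type (limma adjusted p = 2.47e-05). Overexpression roots had a low-N response of -0.55, which missed the threshold (limma adjusted p = 0.105). The table does not say whether this ID is the overexpressed gene.

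Overexpression effects at low and normal N differed for 8832 genes, which is 35.9% of those tested (limma, adjusted p under 0.05). Most of the called interactions were moderate, with a median size of 0.66 and quartiles of 0.45 and 1.06 on the log2 scale, beside a median SE of 0.15. The strong ones leaned to the positive side. Sizes of at least 1 were reached by 2429 genes (9.89% of those tested), 1502 positive (6.11%) and 927 negative (3.77%). Sizes of at least 2 were reached by 350 positive and 151 negative genes, at least 3 by 99 and 21, and at least 4 by 28 and 5. The lean held at size 1 after rescaling, with 60.4% positive when each library was divided by its median ratio to the genes' geometric means (median-ratio rescaling) and 56.0% when all libraries were given 1 distribution (quantile rescaling), against 61.8% with the deposited values. Over all called genes the share was 52.2%, 50.2% and 45.4% positive under the deposited values and these scalings, so the larger side of the full set turned over with quantile rescaling.

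The same libraries were also read singly, as a description of the called genes and not as separate support. With 1 library from each group there are 81 combinations, each with its own difference of differences. All 81 had the same sign for 7969 of the 8832 called genes (90.2%) and for 2373 of the 2429 genes with a size of at least 1 (97.7%). The corresponding number was 642 of 15738 genes that were not called (4.08%). On the untransformed FPKM scale, 43 of the 8832 genes had a difference of differences of the other sign, so the direction seldom depended on taking logarithms.

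**Figure D1:**
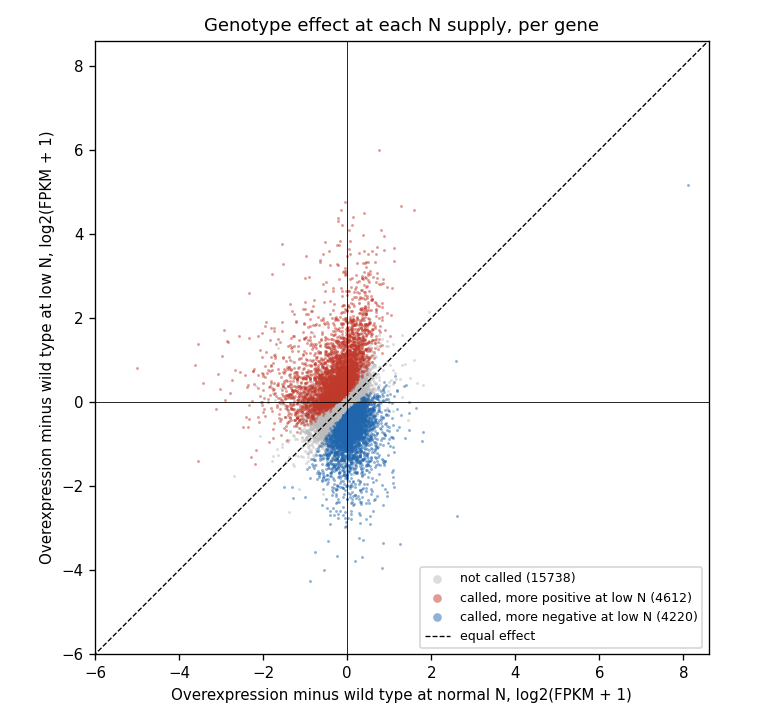
Each point is 1 of 24570 tested genes, with the overexpression minus wild-type difference in log2(FPKM + 1) at normal N on the x axis and at low N on the y axis; the dashed line marks equal effects, red and blue points are the 4612 positive and 4220 negative called interactions, and grey points are the 15738 genes not called. The called genes spread farther along the y axis than along the x axis, and the point at the far right is Potri.014G103000.

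Called interactions were sorted by where the overexpression effect itself passed the test. That effect was called for 47.9% of tested genes at low N and for 23.8% at normal N. The largest class held 5239 genes (59.3% of called interactions) with an overexpression effect called at low N and not at normal N. An effect called at normal N and not at low N was found for 1361 genes (15.4%), and effects called at both N supplies with opposite signs for 1214 genes (13.7%). Effects of the same sign were larger at low N for 522 genes and smaller there for 105. For 391 genes neither effect passed on its own. An effect that did not pass is not thereby shown to be absent. The order of the 3 largest classes was the same after median-ratio rescaling, with 4766, 1534 and 1370 genes. After quantile rescaling the classes held 5504, 1164 and 1220 genes, so the places of the smaller pair were exchanged, as they were with a filter at 5 FPKM, with 1042 genes called at normal N alone and 1104 with opposite effects.

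**Figure D2:**
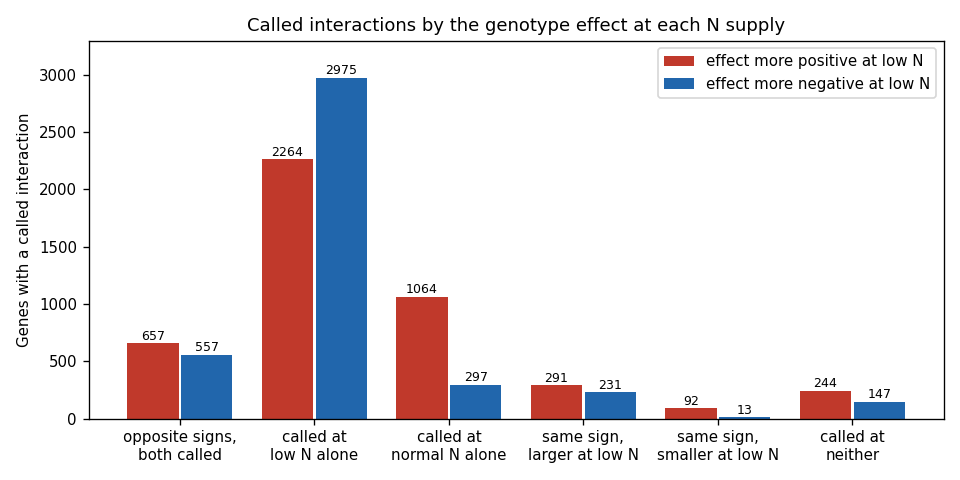
Bars count the genes with a called interaction in each of 6 classes, set by whether the overexpression effect passed the test at low N, at normal N, at both or at neither; red bars are interactions more positive at low N and blue bars those more negative. The class called at low N alone is the largest, with 2264 positive and 2975 negative genes from the deposited values, and 2366 and 2400 after median-ratio rescaling.

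Genes with opposite effects showed the interaction most plainly. Of the 1214, 657 were higher in overexpression roots at low N and lower at normal N, with median effects of 0.62 and -0.53. The other 557 were lower at low N and higher at normal N, with medians of -0.57 and 0.40. This split followed the scaling, at 54.1% positive with the deposited values, 37.7% after median-ratio rescaling and 40.0% after quantile rescaling. With the deposited values, both effects reached a size of 1 for 70 genes, 60 of them higher in overexpression roots at low N and 10 lower there. These 70 were not counted again after rescaling. The class also held 63 of the 120 interactions of size 3 or more.

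Potri.001G288301 had the largest positive interaction of this class. It had 24.0, 32.3 and 56.2 FPKM in overexpression roots at low N, against 3.11, 1.89 and 0.59 FPKM in wild-type roots at low N. At normal N it had 3.36, 3.03 and 3.22 FPKM in overexpression roots, against 12.2, 11.4 and 10.6 FPKM in wild-type roots. Genotype order was inverted between the N supplies without overlap at either one, and the ratio of overexpression to wild-type means was 20.1 at low N and 0.281 at normal N. The interaction was 5.33 ± 0.478 (SE, limma adjusted p = 1.3e-05).

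Potri.002G001400 was nearly symmetrical. It had 39.5, 19.0 and 22.7 FPKM in overexpression and 3.10, 3.58 and 3.62 FPKM in wild-type roots at low N, against 3.59, 3.50 and 3.36 FPKM in overexpression and 21.2, 22.3 and 21.9 FPKM in wild-type roots at normal N. Overexpression roots at low N and wild-type roots at normal N thus shared the high level, and the other groups shared the low one. Its interaction was 4.94 ± 0.271 (SE, limma adjusted p = 1.15e-07).

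Among negative interactions with opposite effects, Potri.002G022600 stood first. It had 4.61, 6.31 and 2.90 FPKM in overexpression and 62.6, 27.5 and 23.5 FPKM in wild-type roots at low N, against 60.9, 58.8 and 66.7 FPKM in overexpression and 8.28, 10.4 and 9.52 FPKM in wild-type roots at normal N. Here wild type was the high genotype at low N and overexpression at normal N, with no overlap at either N supply. The interaction was -5.31 ± 0.46 (SE, limma adjusted p = 1.18e-05).

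Potri.005G193800 had 2.05, 2.18 and 2.58 FPKM in overexpression and 66.0, 40.6 and 45.7 FPKM in wild-type roots at low N. At normal N it had 146.1, 151.1 and 155.0 FPKM in overexpression and 88.7, 87.6 and 76.1 FPKM in wild-type roots. Overexpression roots at low N were the single group near 2 FPKM. Its interaction was -4.79 ± 0.199 (SE, limma adjusted p = 1.14e-08).

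In the class with an effect called at low N alone, 2264 genes were positive with a median effect of 0.62 at low N and -0.05 at normal N. The 2975 negative genes had medians of -0.57 and 0.03. The larger negative side depended on the scaling, at 2366 positive and 2400 negative genes after median-ratio rescaling and 2351 and 3153 after quantile rescaling. The largest positive interaction belonged to Potri.016G057600, with 1987, 2820.2 and 3539 FPKM in overexpression and 29.4, 81.0 and 30.2 FPKM in wild-type roots at low N. At normal N it had 6.95, 6.95 and 5.79 FPKM in overexpression and 3.48, 3.43 and 3.40 FPKM in wild-type roots. Both genotypes were higher at low N, and the ratio of overexpression to wild-type means was 59.4 at low N and 1.91 at normal N. The normal-N libraries did not overlap either, although the effect there did not pass (limma adjusted p = 0.14), and the interaction was 5.22 ± 0.488 (SE, limma adjusted p = 2.53e-05).

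Potri.010G196400 moved with N supply in both genotypes. It had 61.3, 49.9 and 27.3 FPKM in overexpression and 0.70, 0.22 and 1.17 FPKM in wild-type roots at low N, against 201.3, 204.9 and 224.0 FPKM in overexpression and 219.9, 226.1 and 207.7 FPKM in wild-type roots at normal N. The genotypes overlapped at normal N and were far apart at low N, where wild type was near 0. The interaction was 4.82 ± 0.378 (SE, limma adjusted p = 5.38e-06).

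On the negative side, Potri.007G100100 was a low-N transcript of wild type. It had 1.63, 2.08 and 2.95 FPKM in overexpression and 54.3, 35.9 and 31.7 FPKM in wild-type roots at low N, against 0.64, 0.66 and 0.97 FPKM in overexpression and 0.34, 0.44 and 0.33 FPKM in wild-type roots at normal N. Its low-N response was 0.86 in overexpression roots and 4.89 in wild type. The genotypes did not overlap at normal N either, although the effect there did not pass (limma adjusted p = 0.184). The interaction was -4.03 ± 0.262 (SE, limma adjusted p = 2.09e-07). Potri.016G124700 was near 1 FPKM in overexpression roots at low N alone. It had 1.21, 0.89 and 0.64 FPKM in overexpression and 31.9, 20.9 and 23.2 FPKM in wild-type roots at low N, against 74.8, 72.7 and 72.8 FPKM in overexpression and 66.1, 64.1 and 63.3 FPKM in wild-type roots at normal N. Here too the normal-N libraries of the genotypes did not overlap, although the effect did not pass (limma adjusted p = 0.343). The SE of the overexpression effect was 0.132 at both N supplies, because the fit takes 1 spread per gene from all groups. That p therefore does not measure the normal-N spread alone. The interaction was -3.96 ± 0.187 (SE, limma adjusted p = 2.15e-08).

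The class with an effect called at normal N alone was mostly positive, at 1064 positive and 297 negative genes. That lean depended on the scaling, with 78.2% positive from the deposited values, 52.5% after median-ratio rescaling and 54.4% after quantile rescaling. Potri.018G047300 had the largest interaction of all genes with at least 5 FPKM in a group mean. It had 5.29, 0.73 and 1.50 FPKM in overexpression and 2.15, 0.34 and 0.17 FPKM in wild-type roots at low N, against 1.45, 1.16 and 1.37 FPKM in overexpression and 72.3, 76.1 and 70.7 FPKM in wild-type roots at normal N. Wild type at normal N was the single group with a high level, and the interaction was 5.81 ± 0.642 (SE, limma adjusted p = 6.33e-05).

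Potri.008G134000 had a like pattern with wide overexpression values at low N. It had 13.03, 2.18 and 0.51 FPKM in overexpression and 0.78, 0.37 and 0.37 FPKM in wild-type roots at low N, against 1.09, 1.02 and 0.88 FPKM in overexpression and 11.9, 14.1 and 14.4 FPKM in wild-type roots at normal N. Its interaction of 4.30 ± 0.875 (SE, limma adjusted p = 0.00372) was 3.41 without overexpression low-N replicate 1. The first of the negative genes, Potri.001G220900, was low in wild type at normal N alone. It had 17.0, 29.6 and 24.7 FPKM in overexpression and 27.6, 20.7 and 29.9 FPKM in wild-type roots at low N, against 12.2, 12.2 and 12.3 FPKM in overexpression and 2.71, 3.27 and 3.75 FPKM in wild-type roots at normal N. The genotypes overlapped at low N, and the interaction was -1.79 ± 0.254 (SE, limma adjusted p = 0.000194). Potri.019G023000 had 0.37 to 0.52 FPKM in wild type and 2.50 to 3.16 FPKM in overexpression roots at normal N. At low N it had 5.32 to 6.49 FPKM in wild type and 3.82 to 5.13 FPKM in overexpression roots. The low-N libraries did not overlap, although the effect there did not pass (limma adjusted p = 0.0968). Its interaction was -1.72 ± 0.172 (SE, limma adjusted p = 6.97e-06).

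Where the effects had the same sign, low N mostly held the larger one. Potri.017G114600 was the most abundant of the genes named here for this class. It had 2814, 3057 and 2002 FPKM in overexpression and 157.1, 113.6 and 186.7 FPKM in wild-type roots at low N, against 1749, 1879 and 1907 FPKM in overexpression and 1019, 1179.9 and 992 FPKM in wild-type roots at normal N. Wild type fell at low N (low-N response -2.82, limma adjusted p = 1.1e-07), while overexpression roots were higher at low N than at normal N by 0.49 (limma adjusted p = 0.0319). The interaction was 3.31 ± 0.256 (SE, limma adjusted p = 2.63e-06).

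Potri.011G142200 had 48.8, 57.6 and 24.7 FPKM in overexpression and 0.56, 0.26 and 1.32 FPKM in wild-type roots at low N, against 5.65, 4.66 and 4.84 FPKM in overexpression and 1.24, 1.89 and 1.32 FPKM in wild-type roots at normal N. Its interaction was 3.38 ± 0.406 (SE, limma adjusted p = 7.43e-05), and overexpression roots were above wild type in every library at both N supplies. Potri.001G305400 was the mirror case. It had 0.39, 0.06 and 0.06 FPKM in overexpression and 24.5, 18.5 and 21.4 FPKM in wild-type roots at low N, against 0.47, 0.43 and 0.66 FPKM in overexpression and 1.78, 1.89 and 1.71 FPKM in wild-type roots at normal N. Overexpression roots stayed under 1 FPKM in all 6 libraries, so the interaction of -3.38 ± 0.188 (SE, limma adjusted p = 5.27e-08) stood beside a low-N response of 3.00 in wild type. Potri.006G272600 had 0.60 to 2.19 FPKM in overexpression and 17.3 to 30.9 FPKM in wild-type roots at low N, against 3.53 to 3.83 FPKM in overexpression and 6.34 to 7.58 FPKM in wild-type roots at normal N. Its interaction was -2.80 ± 0.339 (SE, limma adjusted p = 6.58e-05).

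A smaller effect of the same sign at low N was rare. Potri.007G144400 had 0.82 to 1.66 FPKM in overexpression and 3.00 to 7.33 FPKM in wild-type roots at low N, against 0.49 to 0.61 FPKM in overexpression and 16.0 to 18.9 FPKM in wild-type roots at normal N (interaction 2.14 ± 0.311 SE, limma adjusted p = 0.000198). Potri.012G042800 had 15.9 to 20.9 FPKM in overexpression and 21.9 to 36.2 FPKM in wild-type roots at low N, against 7.78 to 8.63 FPKM in overexpression and 43.2 to 48.8 FPKM in wild-type roots at normal N (interaction 1.76 ± 0.209 SE, limma adjusted p = 4.62e-05). Both were lower in overexpression roots throughout, and less so at low N. Potri.012G049900 had 8.72 to 11.5 FPKM in overexpression and 3.88 to 5.59 FPKM in wild-type roots at low N, against 9.44 to 10.7 FPKM in overexpression and 0.70 to 0.92 FPKM in wild-type roots at normal N (interaction -1.63 ± 0.172 SE, limma adjusted p = 1.17e-05). Overexpression roots held this transcript at nearly 1 level at both N supplies (low-N response 0.03, limma adjusted p = 0.836).

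**Figure D3:**
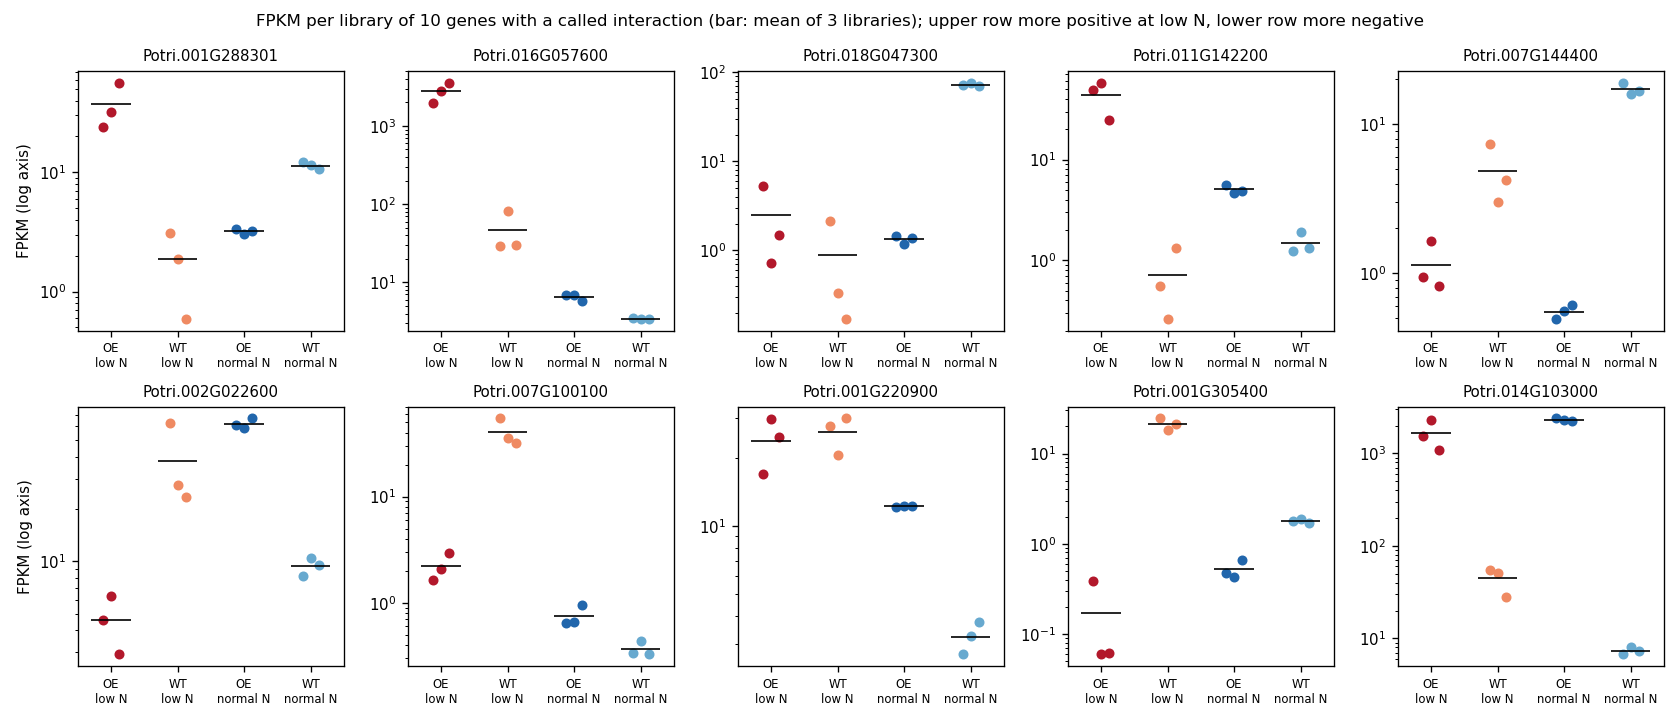
Points give the FPKM of every library on a log axis for 10 genes, with overexpression (OE) and wild type (WT) at low N left of the normal-N groups and a bar at the mean of 3 libraries; each column is a class, in the order opposite, low N alone, normal N alone, same sign and larger at low N, same sign and smaller at low N. The upper row holds positive interactions (from 2.14 to 5.81) and the lower row negative ones (from -5.31 to -1.79).

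The genes named where neither effect passed had wide overexpression values at low N. Potri.001G449900 had 20.8, 5.21 and 6.14 FPKM and Potri.016G128300 had 25.0, 8.62 and 5.65 FPKM there, so overexpression low-N replicate 1 was high in both. Their interactions of 1.63 ± 0.523 and 1.59 ± 0.544 (SE; limma adjusted p = 0.0334 and 0.0437) were 1.06 and 1.02 without that library. Potri.015G098650 had 7.27, 1.93 and 3.34 FPKM in overexpression roots at low N, with an interaction of -1.30 ± 0.429 (SE, limma adjusted p = 0.0351). Potri.010G150700 had 238.5, 283.3 and 114.1 FPKM there, with an interaction of -1.21 ± 0.411 (SE, limma adjusted p = 0.043). Each of these 4 calls was lost when single libraries were left out, in 7 to 10 of 12 cases. Potri.001G449900 and Potri.016G128300 stayed called without overexpression low-N replicate 1. Both were lost when any library of the other groups was left out. Potri.010G150700 stayed called without any single overexpression low-N library.

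The strong interactions were then sorted by which group stood apart, a sorting chosen after the values were seen. Low N against normal N was called for 69.7% of tested genes in overexpression and 68.8% in wild-type roots. A group stood apart where it differed by at least 1 on the log2 scale, with a call, from both the other genotype at its N supply and the other N supply of its genotype, while the remaining pair of contrasts fell short of that. Wild type at low N was the group apart for 626 of the 2429 genes (25.8%). Overexpression at low N was apart for 312 genes (12.8%), wild type at normal N for 162 (6.67%) and overexpression at normal N for 65 (2.68%). The other 1264 genes fell in no such pattern. This order was the same after median-ratio rescaling, with 614, 295, 162 and 43 genes, and after quantile rescaling, with 658, 304, 148 and 41 genes. The sorting rule asks for a called low-N response of at least 1 in the genotype of the group apart and not in the other. The medians given next for these sets therefore follow in part from the sorting and are description.

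The 626 genes with wild type apart at low N fell into 310 that were low there and 316 that were high. For the 310, the median low-N response was -0.05 in overexpression and -1.84 in wild-type roots. For the 316, it was 0.12 in overexpression and 1.63 in wild-type roots. The balance of the 2 sides moved from 49.5% low in wild type with the deposited values to 58.8% after median-ratio rescaling and 54.0% after quantile rescaling. Potri.007G100100, Potri.017G114600 and Potri.001G305400 belonged to this set.

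The 312 genes with overexpression apart at low N comprised 195 that were high there and 117 that were low, among them Potri.005G193800. The high share was 62.5% with the deposited values, 58.6% after median-ratio rescaling and 53.0% after quantile rescaling. The median low-N response of the 195 was 1.53 in overexpression and -0.01 in wild-type roots. For the 117 it was -1.70 in overexpression and -0.08 in wild-type roots. Of the 162 genes with wild type apart at normal N, 156 were high there and 6 were low, and this lean held under both scalings, with 152 and 10 genes after median-ratio rescaling and 139 and 9 after quantile rescaling. The 156 had median group means of 2.81 FPKM in overexpression and 1.88 FPKM in wild-type roots at low N, against 2.15 FPKM in overexpression and 9.76 FPKM in wild-type roots at normal N. The 65 genes with overexpression apart at normal N were 59 low and 6 high, a lean that was weaker after scaling, at 29 and 14 genes with median-ratio rescaling and 25 and 16 with quantile rescaling.

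The medians of all tested genes moved with N supply by 0.21 in overexpression and 0.20 in wild-type roots with the deposited values, and by 0.01 and 0.01 after median-ratio rescaling. The median interaction was 0.01 with the deposited values, 0.00 after that rescaling and -0.04 after quantile rescaling.

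**Figure D4:**
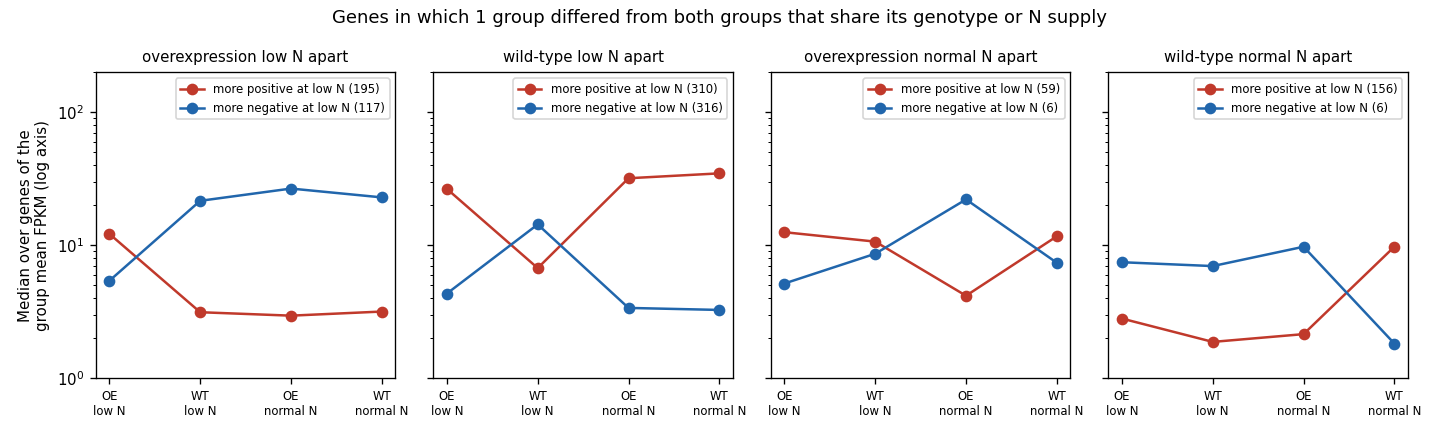
Each panel takes the genes in which the named group stood apart and gives the median over genes of the group mean FPKM on a log axis in overexpression (OE) and wild type (WT) at low and normal N; red lines are positive and blue lines negative interactions, with the number of genes in brackets, and lines only join the groups. In the second panel the medians of 310 genes drop to 6.74 FPKM in wild type at low N and those of 316 genes climb to 14.4 FPKM there, while the other 3 groups have 26.6 to 34.8 FPKM and 3.26 to 4.34 FPKM.

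Some strong interactions sat on neighbouring IDs. When the 24469 tested IDs of numbered series were put in the order of their numbers, 5 runs of at least 4 consecutive tested IDs, 25 genes in all, had called interactions of at least 1 in size and of 1 sign. The runs were picked for this property, so it is given as a description. The longest went from Potri.014G033200 to Potri.014G034000 with 7 genes and interactions of -2.71 to -1.10 (largest limma adjusted p = 0.0231). All 7 were lower in overexpression roots at low N, with ratios of overexpression to wild-type means of 0.219 to 0.482, against 0.933 to 1.85 at normal N. The low-N libraries did not overlap for 6 of them. Potri.014G033550 did overlap, with 0.53, 0 and 0.59 FPKM in overexpression and 1.68, 1.31 and 0.53 FPKM in wild-type roots at low N. Unlike the rest of the run it was lower at low N in wild type, with low-N responses of -0.72 there and -1.82 in overexpression roots. Within the run, Potri.014G033600 had 7.95, 9.90 and 13.1 FPKM in overexpression and 46.4, 45.3 and 49.4 FPKM in wild-type roots at low N. At normal N it had 24.2, 21.7 and 20.8 FPKM in overexpression and 13.9, 14.8 and 14.4 FPKM in wild-type roots. The genotype order of this gene was inverted between the N supplies.

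The 5 genes from Potri.013G102700 to Potri.013G103000 had interactions of -2.41 to -1.23, and overexpression to wild-type ratios of 0.209 to 0.528 at low N and 1.14 to 1.31 at normal N. In the run of 5 from Potri.006G170900 to Potri.006G171268, the interactions were -2.06 to -1.11 with group means of at most 6.86 FPKM. The 4 genes from Potri.019G124400 to Potri.019G124750 turned the other way, with interactions of 1.52 to 1.85 and ratios of 3.03 to 3.63 at low N and 0.659 to 0.999 at normal N. The 4 genes from Potri.001G011000 to Potri.001G011700 were also positive, at 1.02 to 2.58, and differed in which group stood apart. In Potri.001G011700 overexpression at low N stood apart, with an overexpression to wild-type ratio of 1.30 at normal N. In the others wild type at normal N stood apart, with ratios of 0.230 to 0.240 there. Whether the members of a run share reads was not tested.

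**Figure D5:**
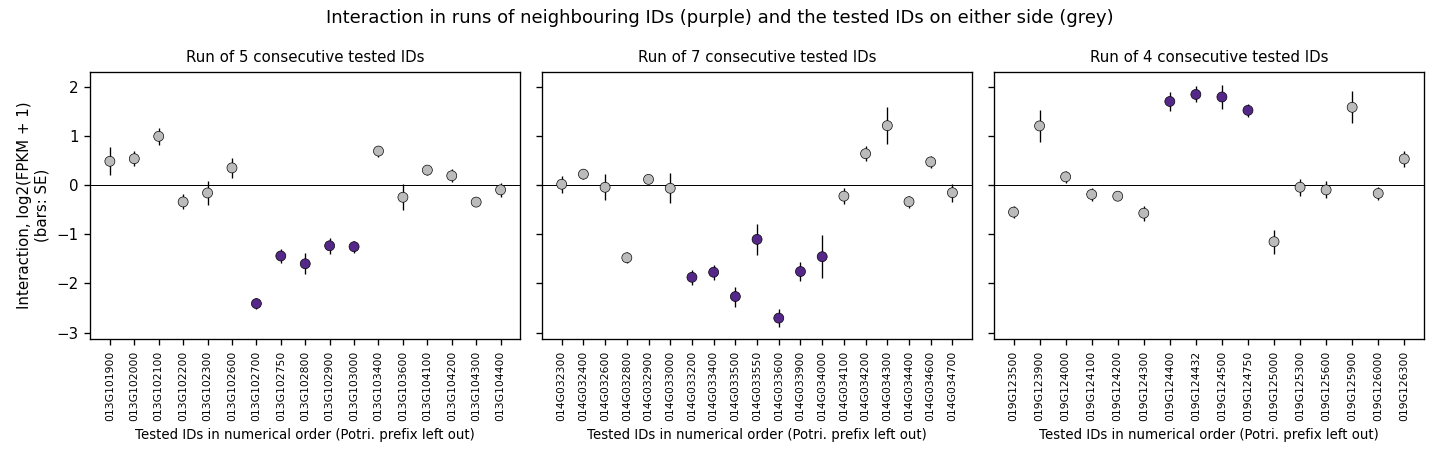
Interaction with its SE on the log2(FPKM + 1) scale for 3 runs of neighbouring IDs (purple) and up to 6 tested IDs on either side (grey), in numerical order. The 7 purple points of the middle panel lie between -2.71 and -1.10, and the neighbours directly outside the run, at -0.06 and -0.22, were not called. Some grey points farther out in that panel were called, with interactions from -1.48 to 1.21.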

How the data were processed

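Roots of PuHox52-OE and wild-type Populus ussuriensis at low and normal N were profiled by RNA-seq. The authors deposited FPKM values in 1 table of 34699 gene IDs by 12 libraries, without pooling. TopHat and DESeq2 are named in the submitters' processing notes without a role or version; genome build, annotation and counting program: not given in the sources. Per the labels' protocols, 2 companies made and sequenced the libraries, without a statement of which handled which library. Columns were assigned by GEO's description labels, and 0 other columns were present.

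Values of genes that reached 1 FPKM in 3 or more libraries were transformed to log2(FPKM + 1), and limma 3.58.1 in R 4.3.3 was used for the fit (1 mean per group, all 12 libraries, 8 residual degrees of freedom, eBayes with trend and robust estimation). Such fold changes understate the change of weakly expressed genes. A gene is called at an adjusted p under 0.05 (Benjamini-Hochberg, across the 24570 genes). The procedure was tested on simulated data with independent normal errors and 1 SD per gene shared by all groups. That setting leaves out the unequal spread of the groups, so it cannot show how the fit handles it. Relative depth was read from genes below 0.15 FPKM in all libraries. The sources link no library to a company, so a batch cannot be told apart from the groups.

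Named IDs are, in each class, up to 2 with the most positive and 2 with the most negative called interaction and at least 5 FPKM in a group mean. Groups apart and runs of IDs were added after seeing the values. The contrast, gene lists and naming rule were chosen with earlier results of these data known. Gene lists set by product could not be run because the table names no products.
Alternatives were a pseudocount of 0.1, no filter, a filter at 5 FPKM, median-ratio and quantile rescaling, library weights, plain eBayes, a square root scale, replicate blocks and leaving out each library.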

Additional observations from a re-analysis of the deposited data

Results flagged for a closer look

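For 8832 genes the limma interaction test found unequal overexpression effects at the 2 N supplies. Among the IDs named, the interaction was flagged because that test passed. With opposite effects it was 5.33 for Potri.001G288301, 4.94 for Potri.002G001400, -5.31 for Potri.002G022600 and -4.79 for Potri.005G193800. With an effect called at low N alone it was -4.03 for Potri.007G100100, -3.96 for Potri.016G124700, 5.22 for Potri.016G057600 and 4.82 for Potri.010G196400. With an effect called at normal N alone it was 5.81 for Potri.018G047300, 4.30 for Potri.008G134000, -1.79 for Potri.001G220900 and -1.72 for Potri.019G023000. For effects of the same sign that were larger at low N it was 3.38 for Potri.011G142200, 3.31 for Potri.017G114600, -3.38 for Potri.001G305400 and -2.80 for Potri.006G272600. Smaller at low N were those with 2.14 for Potri.007G144400, 1.76 for Potri.012G042800, -2.94 for Potri.014G103000 and -1.63 for Potri.012G049900. Where neither effect passed, it was 1.63 for Potri.001G449900, 1.59 for Potri.016G128300, -1.30 for Potri.015G098650 and -1.21 for Potri.010G150700.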

How the results depend on the processing

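Interactions were called for 7532 to 9775 genes under the settings other than leaving out libraries, and for 7531 to 8965 genes when each library was left out in turn, against 8832. Of the 8832 genes, 8568 remained called after median-ratio rescaling, 8262 after quantile rescaling, 8489 with a pseudocount of 0.1 and 8472 on a square root scale, and no setting but quantile rescaling, with 1 gene, called any of them with the other sign. A replicate block within each N supply gave 7774 calls, and 1 across all groups gave 8453. Deviations from the group means correlated at -0.127 to 0.0776 between same-numbered libraries of the genotypes. Between libraries of unlike number at the same N supply the correlations were -0.163 to 0.213. With 3 libraries per group these values cannot decide whether the numbers mark pairs. The main fit did not take them as pairs.

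The class sizes were less stable. With library weights, 4003 of 9775 called interactions had an effect called at low N alone, against 5239 of 8832 without them. That setting gave 1958 genes with opposite effects, 2204 called at normal N alone and 1220 of the same sign and larger at low N. Weights by N supply, chosen after seeing the data, gave 793 of the last. Leaving out single libraries gave 818 to 1363, 892 to 1537 and 296 to 621 genes for these, the low values without overexpression normal-N replicate 3 for the first pair and without wild-type normal-N replicate 1 for the last. That last count was also 297 to 323 without overexpression normal-N replicate 1, 2 or 3 or wild-type normal-N replicate 3. Same-sign effects smaller at low N numbered 66 without wild-type low-N replicate 1 and at most 113. Overexpression at normal N stood apart for 162 genes with a pseudocount of 0.1, 43 after median-ratio rescaling and 41 after quantile rescaling. Wild type at normal N stood apart for 102 genes with a filter at 5 FPKM. Of the 24 named IDs, 20 passed under all 23 settings; the other 4 are those where neither effect passed. On the square root scale, sizes of 1 and groups apart have no counterpart and were not counted. The cause of these moves was not tested.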

Other observations

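The share of genes with a called interaction was 26.5% of 7870 genes with a mean under 5 FPKM, 34.1% of 10173 genes from 5 to 20 FPKM, 47.9% of 5486 genes from 20 to 100 FPKM and 61.9% of 1041 genes above that. The median size of called interactions was 0.868, 0.616, 0.547 and 0.626 in the same order.

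On the FPKM scale the largest called differences of differences, picked after the values were seen, were 2732 for Potri.016G057600 and 2114 for Potri.010G012100 on the positive side and -1327 for Potri.006G141700 and -1016 for Potri.014G024100 on the negative side. Potri.010G012100 had 2509.9, 2304 and 2126 FPKM in overexpression and 504, 607 and 511 FPKM in wild-type roots at low N, against 1059, 1002 and 999 FPKM in overexpression and 1245, 1601 and 1237 FPKM in wild-type roots at normal N. Potri.006G141700 had 822, 767 and 769 FPKM in overexpression and 1948, 2010.3 and 1944 FPKM in wild-type roots at low N, against 993, 981 and 999 FPKM in overexpression and 857, 864 and 817 FPKM in wild-type roots at normal N. Potri.014G024100 had 583, 629 and 694 FPKM in overexpression and 1447, 1467 and 1457 FPKM in wild-type roots at low N, against 784, 772 and 801 FPKM in overexpression and 581, 625 and 568 FPKM in wild-type roots at normal N. In the last pair, wild type at low N was the single high group.

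The IDs from Potri.013G000100 to Potri.013G032200 with at least 5 FPKM in every group mean (121 genes) had a median interaction of -0.12, against -0.01 for the other 13705 genes. Without wild-type low-N replicate 2 the medians were -0.31 and -0.01, so the median for these IDs lay farther from 0 without that library. No other library was left out for this value, and no rule for choosing that library or the ID limits is given here. Of the 214 tested IDs of this stretch, 21.0% had a called interaction, against 35.9% of all tested genes. The calls in the stretch were 24 positive and 21 negative.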
